A study of Homo sapiens with 6 samples.

Results

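Matrix metalloproteinases (MMPs) and their tissue inhibitors (TIMPs) were followed in 2 human respiratory epithelial cell lines exposed to transforming growth factor beta 1 (TGF-β1). The 10 genes were taken by symbol: the collagenases MMP1 and MMP13, the gelatinases MMP2 and MMP9, matrilysin (MMP7), stromelysin 2 (MMP10), the membrane-anchored MMP14, and TIMP1, TIMP2 and TIMP3. Each was listed exactly once among the 25737 entries of every count table. A549 cells are a lung carcinoma line, and BEAS-2B cells are an immortalised line from bronchial epithelium. In each line, 1 library came from untreated cells (0 ng/mL), 1 from cells given 1 ng/mL TGF-β1 and 1 from cells given 5 ng/mL, all harvested after 48 h. All 6 cultures carried the wild-type genotype of their line and were kept in RPMI medium, lowered to 1% serum for the treated cells from the time of treatment. Whether the untreated cells had the same change of serum is not given in the sources used here, so TGF-β1 and the medium cannot be told apart if they did not.

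MMPs are zinc-dependent endopeptidases that cut collagens, laminins, fibronectin and other matrix proteins, and most are secreted as inactive proenzymes. TIMPs bind the active site of MMPs and block it, so the ratio of proteases to inhibitors is a customary summary of matrix turnover in lung fibrosis. TIMP2 has a second role, since it links the MMP2 proenzyme to MMP14 at the cell surface for activation.

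Total counts per library were 4120624 to 7841350. Each condition had a single library, so no test between conditions could be made. Every interval given here is an exact 95% counting interval, which covers counting error only and not the spread between cultures. Reads carried no molecular identifiers. Counts were brought to a common depth with TMM factors, which gives the normalized count, and log2(normalized count + 1) is the ND value. A gene was called a DEG where the fold change (FC, on normalized counts plus 1) reached 2 upward or downward and 1 or both of the compared libraries had an ND value of 7 or more. An ND value of 7 is a normalized count of 127, or a raw count of 101 to 185 depending on the library. Folds quoted with an interval are ratios of normalized counts without that added 1. The libraries hold 3′-end reads, which do not grow with transcript length, so counts of different genes are set side by side without dividing by length.

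In A549 cells at 5 ng/mL, 3 of the 10 members were upregulated (MMP2, TIMP2 and TIMP3) and 1 was downregulated (MMP7). Of 7115 genes tested there, 33.3% were called, 16.1% upward and 17.1% downward, and 5 of the 10 members had reached ND 7. In BEAS-2B cells at 5 ng/mL, MMP2 and MMP14 were upregulated and no member was downregulated, with 4 members at ND 7. The background in that comparison was 19.0% of 6735 genes tested, 7.33% upward and 11.6% downward. Because MMP2, MMP7 and TIMP3 in A549 cells and MMP14 in BEAS-2B cells reached ND 7 in 1 of the 2 libraries only, no share of the members at ND 7 is read from these counts. The median log2 FC over all 10 members was 2.24 for A549 and 1.19 for BEAS-2B cells, against 0 over all entries in both lines. All entries include those without a read, 8859 to 11021 per library. Among the members at ND 7 the medians were 3.85 and 1.19, against 0.11 and 0.03 over all genes tested. Members could reach ND 7 through 1 library alone, which limits these medians too. Both medians over all 10 members were the same with MMP1, which had no count in either control, set at its lower bound.

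At 1 ng/mL, MMP2 and TIMP2 were upregulated and MMP7 was downregulated in A549 cells, where 23.5% of 7007 genes tested were called (10.9% upward, 12.6% downward). In BEAS-2B cells at 1 ng/mL, MMP2 was the only member called, with a background of 14.8% of 6681 genes (5.66% upward, 9.13% downward). The comparisons at 1 and 5 ng/mL share the control library of their line, so the directions at both doses are not independent. Between 1 and 5 ng/mL, no member was called in either line, beside 3.40% of genes in A549 (1.61% upward, 1.79% downward) and 0.904% in BEAS-2B (0.492% upward, 0.412% downward).

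These calls depend on the scale to which the minimum of 7 is applied, and the scale of the study's own normalized data is not given in the sources used here. With log2(CPM + 1) in place of ND, only MMP2 and TIMP2 were called in A549 at 5 ng/mL (37.6% of 1976 genes tested were called) and TIMP2 alone at 1 ng/mL (24.1% of 1850). MMP2 alone was called in BEAS-2B, at 5 ng/mL (18.3% of 1870) and at 1 ng/mL (14.3% of 1815). MMP7, TIMP3 and the MMP14 of BEAS-2B were then below the minimum. At 5 ng/mL the CPM scale called 742 genes in A549 and 342 in BEAS-2B, against 2366 and 1277 with ND. The totals of changed genes that the study reports for each line lie close to these CPM counts. The calls of MMP7, TIMP3 and MMP14 thus rest on a looser minimum than the CPM scale gives.

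**Figure D1:**
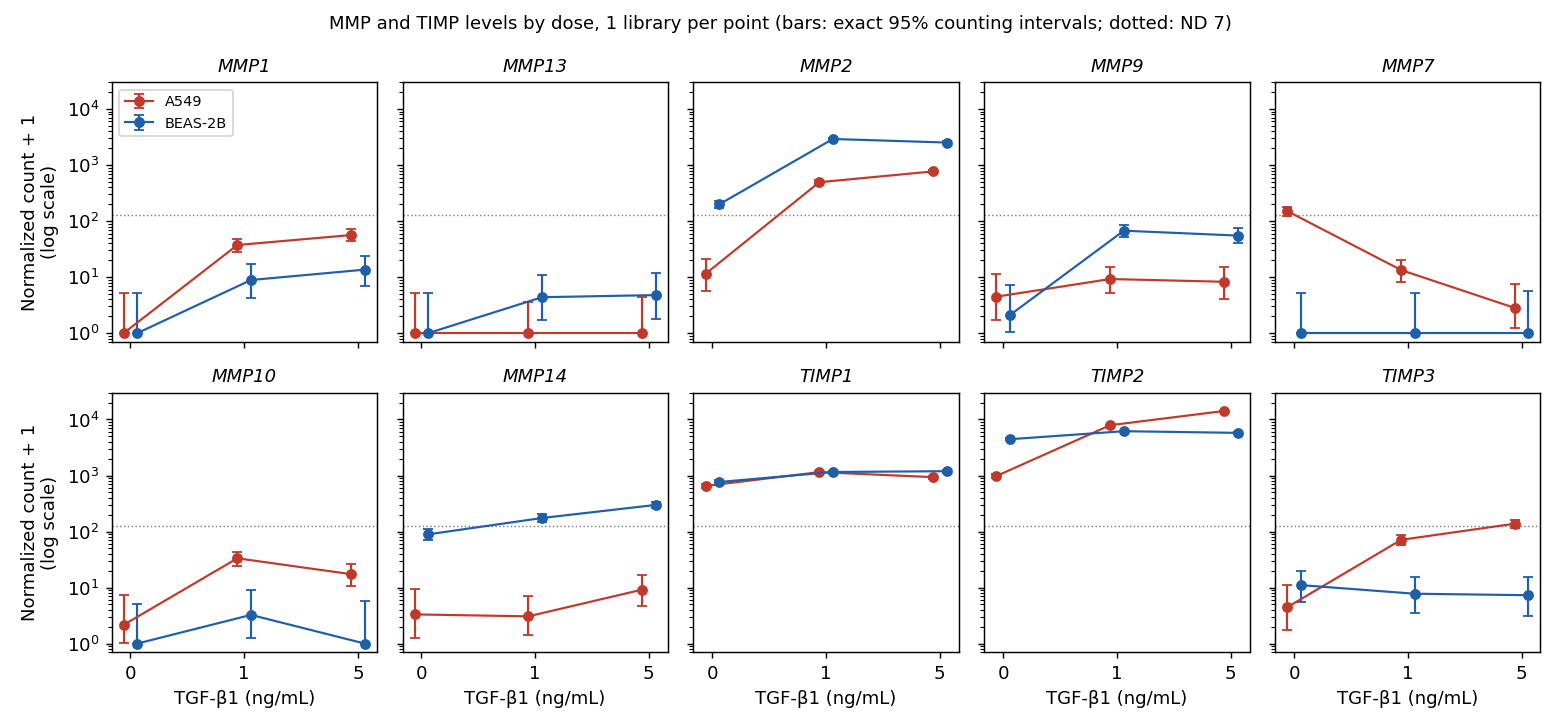
Normalized count plus 1 (log axis) of the 10 genes against TGF-β1 dose (0, 1 and 5 ng/mL, evenly spaced) in A549 (red) and BEAS-2B (blue), 1 library per point, with exact 95% counting intervals and ND 7 dotted. MMP2 was higher at both doses in both lines, TIMP2 went from 979 to 14170 in A549 and from 4448 to 5769 in BEAS-2B, MMP7 went from 149 to 1.81 in A549, and TIMP1 stayed between 650 and 1193 in all 6 libraries.

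MMP2 (72-kDa gelatinase) gave 9, 718 and 848 reads in the A549 libraries with 0, 1 and 5 ng/mL, and 177, 2598 and 2004 reads in the BEAS-2B libraries. The normalized counts were 10.4, 493 and 769 in A549 and 197, 2923 and 2524 in BEAS-2B. All 4 treated libraries thus lay above both controls, and neighbouring libraries in the order of MMP2 levels were separated by more than their counting error. At 5 ng/mL MMP2 was 73.8-fold (38.7 to 162) above its control in A549 cells and 12.8-fold (10.96 to 15.0) in BEAS-2B cells. The A549 fold was 5.77 times (2.95 to 12.9) the BEAS-2B fold and rested on a control of 9 counts. The study itself lists MMP2 as a core gene raised in both lines, so this rise is not an independent finding. The A549 fold that it gives for MMP2 is lower than the ratio given here. The higher level was nonetheless in BEAS-2B cells at every dose, by 18.9-fold (9.75 to 42.1) without treatment, 5.93-fold (5.45 to 6.45) at 1 ng/mL and 3.28-fold (3.03 to 3.56) at 5 ng/mL. From 1 to 5 ng/mL, MMP2 was 1.56-fold (1.41 to 1.73) higher in A549 cells and 0.863-fold (0.814 to 0.916) in BEAS-2B cells, so this step had opposite directions in the lines, with neither interval including 1.

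MMP9, the other gelatinase, stayed below ND 7 everywhere. Its counts were 3, 12 and 8 in A549 cells and 1, 59 and 43 in BEAS-2B cells. The BEAS-2B libraries with TGF-β1 stood apart from the other 4, with normalized counts of 66.4 and 54.2 against 1.12 to 8.24. At 5 ng/mL the ratio to control was 48.6 (8.26 to 1962) in BEAS-2B cells and 2.09 (0.501 to 12.2) in A549 cells. The A549 interval includes 1, and the BEAS-2B ratio was 23.3 times (1.52 to 1240) the A549 ratio, with a single read in the BEAS-2B control behind the wide interval.

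MMP14, the membrane protease that activates MMP2, was found mainly in BEAS-2B cells. It had 79, 154 and 236 counts in BEAS-2B, in dose order, or normalized counts of 88.1, 173 and 297. A549 cells gave 2, 3 and 9 counts. The level was higher at each dose step in BEAS-2B, beyond counting error: 1.97-fold (1.49 to 2.61) from 0 to 1 ng/mL and 1.72-fold (1.39 to 2.12) from 1 to 5 ng/mL. Against control, MMP14 at 5 ng/mL was 3.37-fold (2.60 to 4.41) higher in BEAS-2B cells, and 3.52-fold (0.729 to 33.5) in A549 cells, where 9 counts leave the direction undetermined. The difference between the lines was 38.0-fold (10.2 to 319) without treatment, 84.1-fold (28.2 to 412) at 1 ng/mL and 36.4-fold (18.9 to 80.6) at 5 ng/mL.

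MMP7, a small protease of glandular and alveolar epithelium, ran the other way. A549 cells gave 129 counts without TGF-β1, 18 at 1 ng/mL and 2 at 5 ng/mL, or normalized counts of 149, 12.4 and 1.81. No BEAS-2B library held a read of MMP7. Taking 3 counts as the most that such a library allows, this leaves a normalized count of up to 3.35 to 3.78. The exact upper counting limits were 4.11 to 4.65. MMP7 was therefore highest in the A549 control and lower with each dose, by 12.1-fold (7.35 to 21.0) at 1 ng/mL and 82.4-fold (22.3 to 687) at 5 ng/mL. In untreated BEAS-2B cells it was at least 44.7-fold lower than in untreated A549 cells, with an exact counting limit of 35.8. In bulk RNA, fewer cells carrying a transcript and less of it per cell cannot be told apart.

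MMP10 was higher in both treated A549 libraries than in their control, most at 1 ng/mL. Its counts were 1, 47 and 18 in A549 cells and 0, 2 and 0 in BEAS-2B cells. The ratio to control was 27.9 (4.76 to 1124) at 1 ng/mL and 14.1 (2.23 to 587) at 5 ng/mL, and the 5 ng/mL library was lower than the 1 ng/mL library by 1.98-fold (1.13 to 3.62). All levels of MMP10 were under ND 7, so none was called.

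MMP1, interstitial collagenase, had no count in either control. A549 cells gave 53 and 61 counts at 1 and 5 ng/mL, and BEAS-2B cells gave 7 and 10. These levels were at least 10.5-fold and at least 15.9-fold higher than the A549 control, and at least 2.35-fold and at least 3.76-fold higher than the BEAS-2B control, taking 3 counts as the most that a library without a read allows. The exact lower counting limits were smaller, 8.23 and 12.6 in A549 and 1.45 and 2.53 in BEAS-2B. The A549 level at 5 ng/mL was 4.39-fold (2.23 to 9.62) above the BEAS-2B level, the reverse of the order for MMP2, MMP9 and MMP14. MMP13 (collagenase 3) had 0 counts in all 3 A549 libraries and 0, 3 and 3 in BEAS-2B, too few for any fold.

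**Figure D2:**
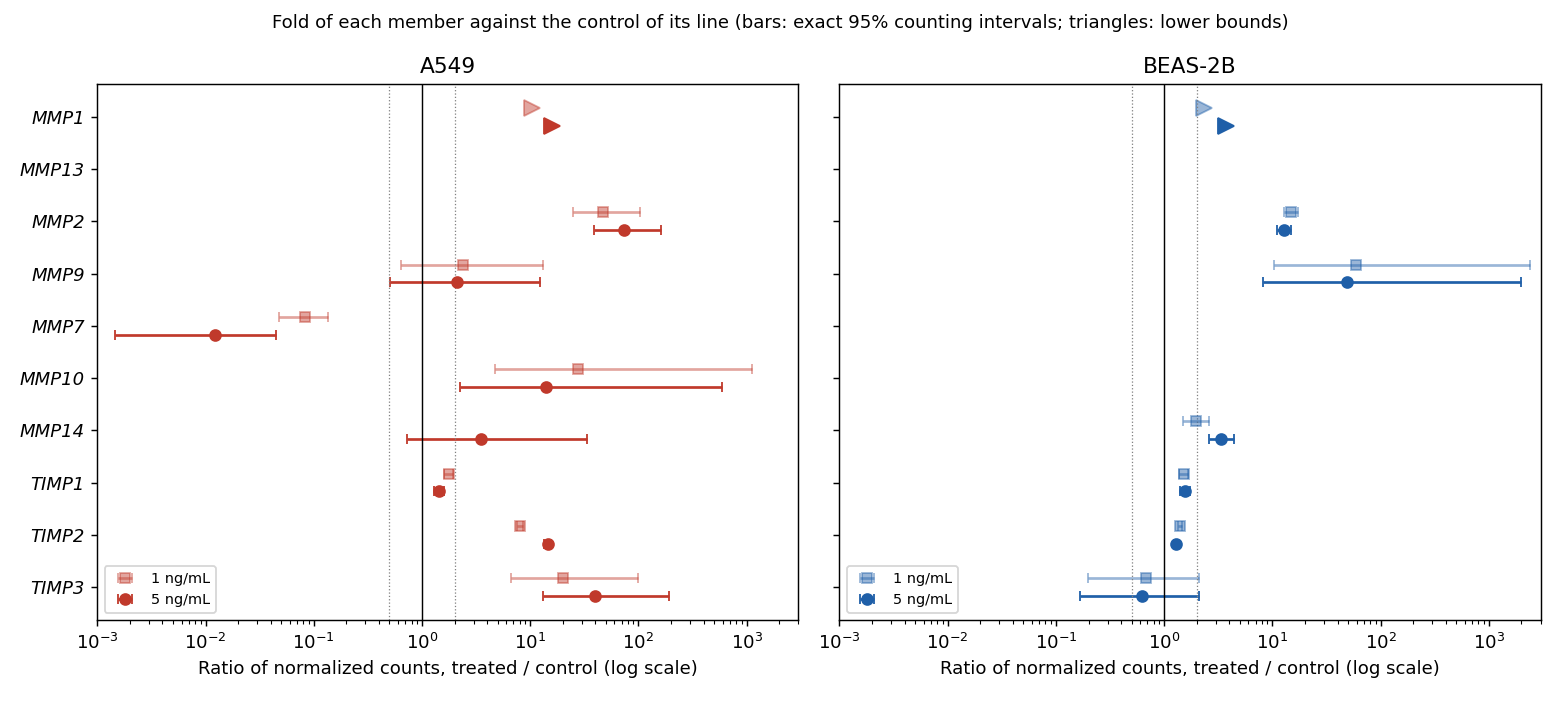
Ratio of normalized counts, treated over untreated (log axis), at 1 ng/mL (squares) and 5 ng/mL (circles) in A549 (left) and BEAS-2B (right), with exact 95% counting intervals. Triangles are lower bounds for MMP1, members at or under 3 counts in both libraries have no point, and dotted lines mark 0.5 and 2. In A549 the points run from MMP7 far to the left to MMP2 at 73.8, while in BEAS-2B the TIMP points lie close to 1.

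Among the inhibitors, TIMP2 carried most reads. TIMP2 was counted 845, 11501 and 15618 times in A549 cells and 3988, 5492 and 4580 times in BEAS-2B cells. Normalized, these were 979, 7902 and 14170 in A549 and 4448, 6180 and 5769 in BEAS-2B. TIMP2 started lower in A549 cells and ended higher: untreated BEAS-2B cells had 4.54 times (4.22 to 4.90) the A549 level, and at 5 ng/mL A549 cells had 2.46 times (2.38 to 2.54) the BEAS-2B level. By rank among the 25737 entries, TIMP2 went from 882nd to 80th and 37th in A549 cells, and lay at 128th, 95th and 97th in BEAS-2B cells. The fold at 5 ng/mL was 14.5 (13.5 to 15.5) in A549 and 1.30 (1.24 to 1.35) in BEAS-2B, a ratio of 11.2 (10.3 to 12.1) between the lines.

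TIMP3, the inhibitor that is bound to the extracellular matrix, had 3, 102 and 151 counts in A549 cells and 9, 6 and 5 in BEAS-2B cells. Both treated A549 libraries lay above the other 4. At 5 ng/mL the A549 level was 39.4-fold (13.2 to 193) above control, and the BEAS-2B level was 0.627-fold (0.165 to 2.08), an interval that includes 1. The A549 fold was 62.8 times (10.5 to 440) the BEAS-2B fold. With a normalized count of 137 at 5 ng/mL, TIMP3 sat just above the 127 needed for a call, and with 70.1 at 1 ng/mL it sat below it.

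TIMP1, a broad secreted inhibitor, varied least of the 3. The counts were 561, 1672 and 1030 in A549 cells and 685, 1026 and 947 in BEAS-2B cells, and the normalized counts were 650, 1149 and 934 and 764, 1154 and 1193. Each treated library was above its control, by 1.44-fold (1.30 to 1.60) in A549 cells and 1.56-fold (1.41 to 1.72) in BEAS-2B cells at 5 ng/mL, below the FC of 2. The ratio of these folds was 0.921 (0.797 to 1.06). At 1 ng/mL the TIMP1 level of the 2 lines differed by 1.01-fold (0.929 to 1.09).

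The balance of proteases to inhibitors was taken as a ratio of raw reads inside each library, where scaling cancels. It is a ratio of 3′ reads and not of protein or activity. MMP2 reads per 100 TIMP2 reads were 1.07 (0.485 to 2.03), 6.24 (5.78 to 6.73) and 5.43 (5.06 to 5.82) in A549, in dose order. In BEAS-2B they were 4.44 (3.80 to 5.16), 47.3 (45.1 to 49.6) and 43.8 (41.5 to 46.1). The balance was 5.10 times (2.66 to 11.2) its control in A549 cells and 9.86 times (8.40 to 11.6) in BEAS-2B cells at 5 ng/mL. TGF-β1-treated BEAS-2B cells thus had 8.06 times (7.38 to 8.80) as many MMP2 reads per TIMP2 read as A549 cells at the same 5 ng/mL, although both genes were upregulated in A549 cells.

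Summed over the 7 proteases and 3 inhibitors, the balance was lower with TGF-β1 in A549 and higher in BEAS-2B. The A549 direction depended on the genes summed. From 0 to 5 ng/mL in A549, MMP reads went from 144 to 946 and TIMP reads from 1409 to 16799. TIMP2 gave 845 and 15618 of these TIMP reads, and no sum leaving out a TIMP was made. MMP reads per 100 TIMP reads were 10.2 (8.55 to 12.1), 6.41 (5.97 to 6.87) and 5.63 (5.27 to 6.01) in A549 cells, a change at 5 ng/mL to 0.551 times (0.458 to 0.667) control. In BEAS-2B cells they were 5.49 (4.82 to 6.22), 43.3 (41.4 to 45.2) and 41.5 (39.5 to 43.6), a change to 7.56 times (6.60 to 8.68) control. MMP7 gave 129 of the 144 MMP reads of the A549 control and none in BEAS-2B. Without MMP7 the A549 sums per 100 TIMP reads were 1.06 (0.594 to 1.76), 6.27 (5.84 to 6.73) and 5.62 (5.26 to 6.0), a change at 5 ng/mL to 5.28 times (3.17 to 9.50) control, so both lines then went up. Without MMP2 the sums were 9.58, 1.00 and 0.583 in A549 and 1.71, 3.45 and 5.28 in BEAS-2B. With the 16 further MMP genes of the family added they were 50.96, 11.1 and 7.61 in A549 and 17.7, 52.1 and 48.4 in BEAS-2B. The order of the untreated lines was turned round in the treated ones with and without MMP2 and with the further MMPs. Among the members without MMP7 it was not turned round, and BEAS-2B was higher at every dose. MMP7 was not left out of the sum with the further MMPs.

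**Figure D3:**
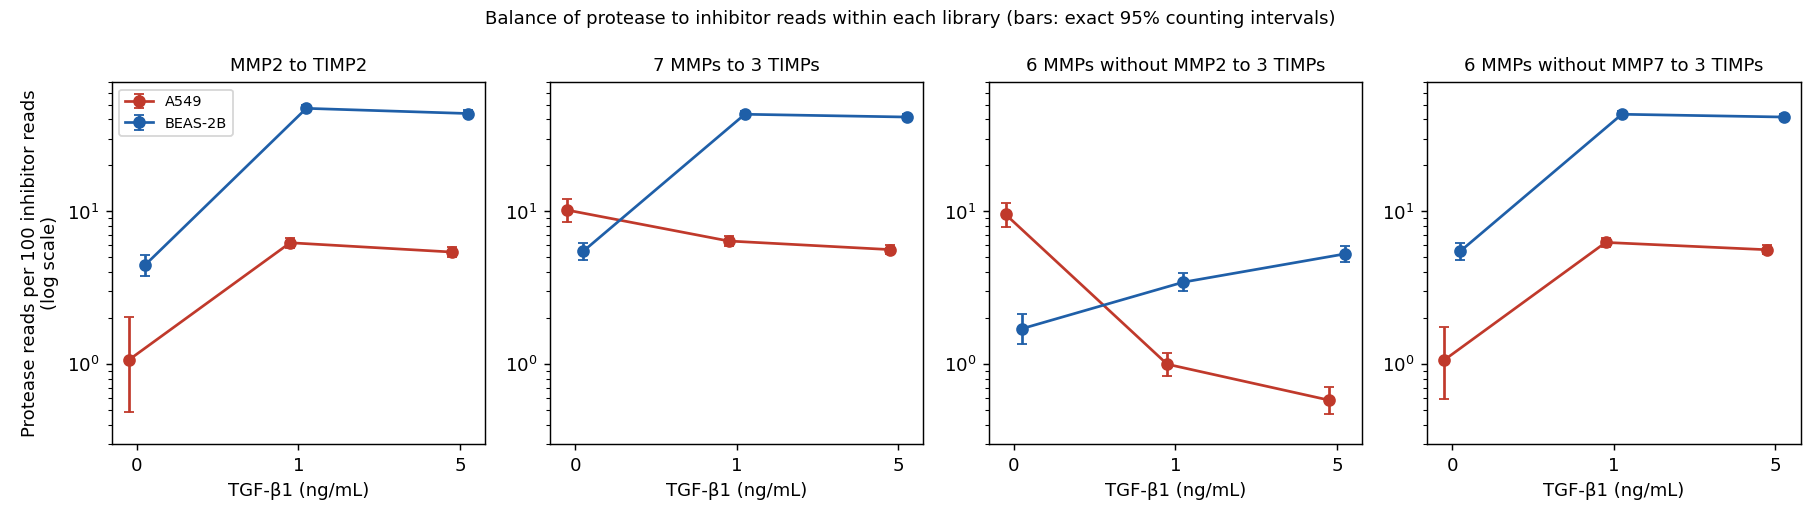
Protease reads per 100 inhibitor reads (log axis) against TGF-β1 dose in A549 (red) and BEAS-2B (blue), 1 library per point, with exact 95% counting intervals, for MMP2 over TIMP2, all 7 MMPs over all 3 TIMPs, and the same without MMP2 and without MMP7. MMP2 to TIMP2 was higher with TGF-β1 in both lines, while the summed balance was lower in A549 (10.2 without, 5.63 at 5 ng/mL) and higher in BEAS-2B (5.49 and 41.5). Without MMP7 the A549 balance was higher with TGF-β1 as well (1.06 and 5.62).

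Single pairs gave the same contrast in part. MMP14 reads per 100 TIMP2 reads were 1.98, 2.80 and 5.15 in BEAS-2B cells, 2.60 times (2.0 to 3.41) control at 5 ng/mL. In A549 cells they were 0.237, 0.0261 and 0.0576, a change to 0.243 times control with an interval of 0.0503 to 2.32 that includes 1. MMP9 reads per 100 TIMP1 reads were 0.146, 5.75 and 4.54 in BEAS-2B and 0.535, 0.718 and 0.777 in A549. MMP1 to TIMP1 instead was higher in A549, with 0, 3.17 and 5.92 MMP1 reads per 100 TIMP1 reads, than in BEAS-2B, with 0, 0.682 and 1.06. Among the inhibitors, TIMP2 outnumbered TIMP1 by 1.51, 6.88 and 15.2 to 1 in A549 and by 5.82, 5.35 and 4.84 to 1 in BEAS-2B.

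The make-up of the protease reads changed with dose. MMP7 supplied most MMP reads of untreated A549 cells and MMP2 6.25%, whereas MMP2 supplied 84.4% and 89.6% at 1 and 5 ng/mL. Its share in BEAS-2B was 68.9% without TGF-β1, beside MMP14, and then 92.0% and 87.3%. The share of TIMP2 in the TIMP reads went from 60.0% to 86.6% and 93.0% in A549 and was 85.2%, 84.2% and 82.8% in BEAS-2B. Together the 10 genes took 0.0375%, 0.180% and 0.291% of all reads in A549 and 0.116%, 0.203% and 0.190% in BEAS-2B.

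**Figure D4:**
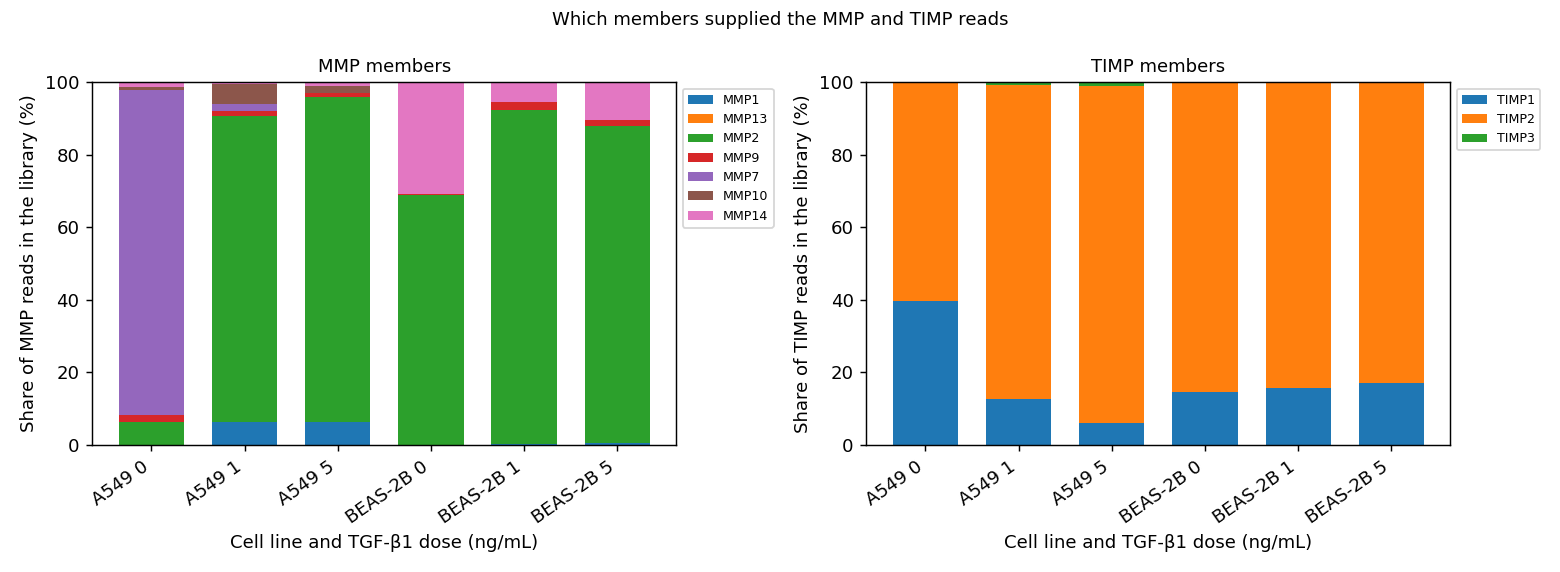
Share of MMP reads (left) and of TIMP reads (right) supplied by each member in the 6 libraries, named by line and TGF-β1 dose in ng/mL, as stacked bars that add to 100%. MMP2 takes 6.25% of the MMP reads of untreated A549 cells and 84.4% to 92.0% in the treated libraries of both lines.

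In GENCODE 29 on GRCh38, MMP7 (102520508 to 102530753), MMP10 (102770503 to 102780628), MMP1 (102789920 to 102798160) and MMP13 (102942995 to 102955734) lie on the minus strand of chromosome 11 in a cluster of MMP genes. The deposited counts were made on hg19, so the positions locate the genes only. The cluster members had unlike patterns: MMP7 was highest in untreated A549, MMP10 and MMP1 in treated A549, and MMP13 was seen in treated BEAS-2B only, at 3 counts. The neighbour MMP3 (stromelysin 1), no member and picked after its values were seen, had 25, 92 and 71 counts in BEAS-2B and 0, 6 and 0 in A549, and MMP20, MMP27 and MMP8 had none in any library. The other members lie apart, MMP2 on chromosome 16 (55389700 to 55506691), MMP9 on 20 (46008908 to 46016561), MMP14 on 14 (22836557 to 22849027), TIMP1 on X (47582313 to 47586789), TIMP2 on 17 (78852977 to 78925387) and TIMP3 on 22 (32801701 to 32863043).

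**Figure D5:**
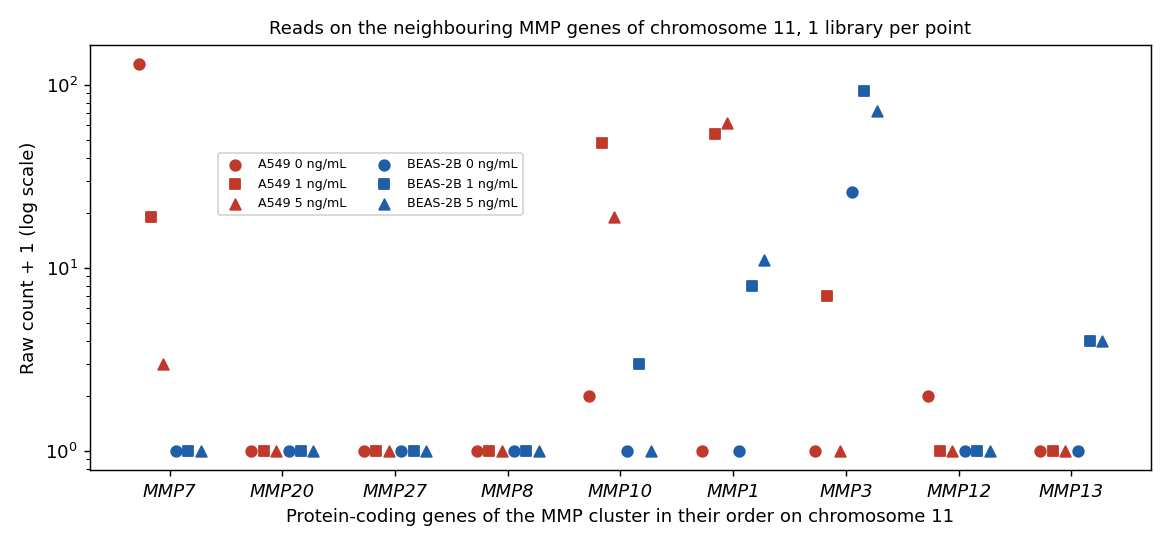
Raw count plus 1 (log axis) of the 9 MMP genes of the chromosome 11 cluster in their order along the chromosome, with A549 in red and BEAS-2B in blue, circles for 0, squares for 1 and triangles for 5 ng/mL TGF-β1. Library totals differ (4120624 to 7841350), and the reads of MMP7, MMP10 and MMP1 came mainly from A549, those of MMP3 mainly from BEAS-2B.

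MMP7 and MMP10, which have 3 other MMP genes between them in this cluster, both carry a TGANTCA match near the start of transcription. TGANTCA was the pattern searched for AP-1 elements, and its N allows any base. The 29 bases around each match are shown because these promoters belong to genes that were lower and higher in the same treated A549 libraries. The sequences are RefSeq's (GRCh38.p14, minus strand, chr11:102530797-102530825 and chr11:102780678-102780706), with the letters that match TGANTCA in capitals.
MMP7: aaacactcaaaTGAGTCAcctatttccac
MMP10: aaacacatgcaTGAATCAtactgttggtg
Both matches begin 67 bases before the start site, at position -67. TGANTCA, searched on both strands, was present in 7.71% of 35116 RefSeq promoters of the same length (250 bases before to 50 after the start). Both promoters also held 1 TATAAA (11.5% of promoters) and no GTCTAGAC, a palindrome bound by SMAD proteins (0.202%). The promoters of MMP14, TIMP1 and TIMP3 had none of these letters, and MMP1, MMP13, MMP2, MMP9 and TIMP2 were not matched, so 5 of the 10 members were searched. A match is a description of the letters only.

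Genes that encode the AP-1 and ETS factors were counted in the same libraries, from a list of 12. At 5 ng/mL, ND 7 was reached by 7 in A549, with 4 calls upward and none downward, led by ETS2 (445 and 1995 counts without and with TGF-β1, 3.51-fold, 3.17 to 3.90), JUN (244 and 977, 3.14-fold, 2.72 to 3.62) and FOSL2 (116 and 342, 2.31-fold, 1.87 to 2.88). In BEAS-2B cells 8 reached ND 7, with JUNB (2.99-fold), ETV5 (2.21-fold) and JUN (2.06-fold) upregulated and FOSL1 downregulated to 0.376-fold. Of all genes tested, 16.1% were called upward and 17.1% downward in A549, and 7.33% and 11.6% in BEAS-2B. Genes could reach ND 7 through 1 library alone, so no share is read from these counts. The median log2 FC of all 12 was 0.10 in A549 and 0.59 in BEAS-2B, against 0 over all entries, and that of the genes at ND 7 was 1.13 and 0.13, against 0.11 and 0.03 over all genes tested.

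The further MMPs were dominated by MMP24, another membrane-type MMP. Of 16 further MMP genes, 5 had no count in any library and 9 passed 3 counts in at least 1. Only MMP24 reached ND 7 in the comparisons at 5 ng/mL. It had 466, 363 and 154 counts in A549, 3.86-fold (3.21 to 4.67) lower at 5 ng/mL, and 391, 329 and 195 in BEAS-2B, where it was not called. In both controls MMP24 alone thus had more reads than the 7 member MMPs together, which had 144 in A549 and 257 in BEAS-2B. Overlapping genes were looked up for the 10 members only, not for MMP24. Among 5 other inhibitors, TIMP4 was upregulated in A549 (26, 88 and 148 counts, 4.46-fold at 5 ng/mL, 2.92 to 7.05) and had 4, 0 and 1 counts in BEAS-2B. TFPI2, a serine protease inhibitor of the matrix, was upregulated in BEAS-2B (42, 274 and 262 counts, 7.04-fold, 5.07 to 10.0) and had 642, 1838 and 1619 counts in A549, without a call at 5 ng/mL. RECK, a membrane-anchored MMP inhibitor, had at most 18 counts in any library.

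Of 13 genes for MMP activation, surface binding and clearance, 8 reached ND 7 in A549 cells at 5 ng/mL, with 2 upregulated and 4 downregulated, and 9 reached it in BEAS-2B cells, with 3 in each direction. Of all genes tested, 16.1% were called upward and 17.1% downward in A549, and 7.33% and 11.6% in BEAS-2B. Genes such as PLAU reached ND 7 in 1 of the compared libraries only, so no share is read from these counts. FURIN, the proprotein convertase that cleaves the MMP14 proenzyme, was upregulated 3.26-fold (2.87 to 3.71) in A549 and 2.06-fold (1.76 to 2.43) in BEAS-2B. ITGAV, a subunit of the integrin that binds MMP2, was upregulated 3.09-fold and 4.03-fold, and its partner ITGB3 was upregulated 2.44-fold in BEAS-2B. PLAU, the urokinase that generates plasmin, was counted 246, 61 and 21 times in A549 and 316, 17 and 21 times in BEAS-2B, 15.0-fold (9.57 to 24.6) and 13.3-fold (8.57 to 21.8) lower at 5 ng/mL. CLDN1, a tight junction protein, was 4.81-fold and 5.06-fold lower. PCSK5, another proprotein convertase, was 2.60-fold lower in A549, and PLAUR, the urokinase receptor, was 2.17-fold lower in BEAS-2B. The median log2 FC of all 13 was -0.70 in A549 and 0.51 in BEAS-2B, against 0 over all entries. Among those at ND 7, however, it was -0.98 and -0.27, against 0.11 and 0.03 over all genes tested.

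Related proteases and the substrates were read beside the members. Of 8 ADAM genes, ADAM19 was upregulated 18.6-fold (14.5 to 24.3) in A549 and 3.73-fold (3.13 to 4.45) in BEAS-2B, and ADAM12 3.35-fold in BEAS-2B, while the median log2 FC of all 8 was 0.04 and -0.19 (0.16 and -0.19 at ND 7). Of 8 ADAMTS genes, ADAMTS15 (9.15-fold) and ADAMTS9 (2.74-fold) were upregulated in A549 and ADAMTS6 (8.23-fold) in BEAS-2B, with medians of 0 and 0.07 over all 8 (2.30 over the 2 and 3.03 for the 1 at ND 7). Of 11 fibrillar and basement membrane substrates, 6 were upregulated in A549 and 7 in BEAS-2B, beside the upward backgrounds of 16.1% and 7.33% of genes tested. Among them, COL1A1 was 20.3-fold and COL5A1 19.2-fold higher in A549, and FN1 was 15.6-fold and COL1A1 11.5-fold higher in BEAS-2B. The median log2 FC of all 11 was 2.65 and 2.55, and 3.73 and 3.0 at ND 7. Genes could reach ND 7 through the treated library alone, so nothing is read from the share called. The study itself followed type I collagen and fibronectin in these cells. It also lists COL1A1, COL4A1, COL4A2, COL5A1 and FN1 among its core genes, so the direction of this list is not independent evidence.

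MMP2 was the member with the largest rise among called members in both lines, and the genes most like it over the 6 libraries, by root mean square difference of centred ND values among 8158 genes, were SPOCK1 (0.397), INHBA (0.568) and LINC01583 (0.594). SPOCK1, a matrix proteoglycan, had 31, 1898 and 2364 counts in A549 and 491, 3684 and 3965 in BEAS-2B. INHBA, a subunit of activin, had 8, 457 and 631 and 45, 1351 and 1054. MMP7 was the called member with the largest fall, and SLC23A1 (0.223), BCAS1 (0.315) and FSTL4 (0.398) were most like it. SLC23A1, an ascorbate transporter, had 183, 25 and 2 counts in A549. All 3 of these genes had 0 counts in all BEAS-2B libraries, as MMP7 did. Likeness over 6 points that share 2 lines and 3 doses is a description.

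Reads from overlapping genes could enter some of these counts, because no source used here states whether strand was used in counting. WTAPP1, antisense to MMP1 with overlapping exons, had 0 to 3 counts, and CEP295NL, which shares exon positions with TIMP2 on the same strand, had 2 to 18. SYN1 around TIMP1 had 10 to 62 counts and SYN3 around TIMP3 had 0 to 7, and neither overlaps an exon of the inhibitor. Exons also overlap for AC007336.3, on the strand of MMP2, SLC12A5-AS1, antisense to MMP9, and AC022966.1, antisense to TIMP2. These genes have no entry of their own, so whether their reads entered the counts of these members cannot be told.

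The labelled epithelial identity was read from 6 genes. Their summed normalized count was 25337 to 28857 in A549 and 3236 to 4379 in BEAS-2B, where EPCAM had 0 counts in all 3 libraries and CDH1 had 2, 0 and 2. Behind the steady A549 sum, single markers changed with TGF-β1. CDH1 (E-cadherin) had 640, 30 and 8 counts in A549 and was 102-fold (51.5 to 238) lower at 5 ng/mL, KRT8 was 4.36-fold lower and KRT7 4.35-fold higher, while EPCAM, with 49, 7 and 2 counts, was under ND 7. The median log2 FC of the 6 in A549 was -2.26 at 5 ng/mL and -1.74 at 1 ng/mL, so it was lower in the same libraries in which MMP2 and TIMP2 were higher and MMP7 was lower. In BEAS-2B, where MMP2 was also higher, the median was -0.32 at 5 ng/mL and -0.91 at 1 ng/mL. The BEAS-2B sum was 3236 without TGF-β1, 4379 at 1 ng/mL and 4178 at 5 ng/mL. Of 6 alveolar type II genes, SFTPA1, SFTPA2 and SFTPC were at 0 in all 6 libraries, and the sum was 84.6, 176 and 179 in A549 and 34.6, 6.75 and 6.30 in BEAS-2B. ABCA3, a lipid transporter of alveolar type II cells, carried most of the A549 sum, with 72, 255 and 194 counts, and was upregulated there at both doses (2.11-fold at 5 ng/mL, 1.60 to 2.81). Of 6 fibroblast genes, the sum was 16.2 to 123 in A549 and 1432 to 1994 in BEAS-2B, with PDGFRA at 0 in all 3 BEAS-2B libraries. Only 2 of the 6 reached ND 7 in the comparisons between the lines, both higher in BEAS-2B. The median log2 FC of all 6, BEAS-2B over A549, was 1.21, -2.97 and 0.003 at 0, 1 and 5 ng/mL. The sum was thus higher in BEAS-2B, as MMP2 and MMP14 were, but the median was not at every dose. The part of these genes in the MMP2 and MMP14 levels was not tested. In A549 the sum was 16.2, 123 and 35.4 by dose. MMP10 and TIMP1 were likewise highest at 1 ng/mL there, MMP1, MMP2, TIMP2 and TIMP3 were highest at 5 ng/mL and MMP7 without TGF-β1. The highest A549 values of MMP9, at 1 ng/mL, and of MMP14, at 5 ng/mL, were not separated from the next by more than counting error. The sum of 4 leukocyte genes was 125, 69.4 and 60.8 in A549 and 53.5, 19.1 and 7.56 in BEAS-2B, with CD3E at 0 in all 6 libraries, and that of 4 endothelial genes was 0 to 5.04, with VWF, CDH5 and KDR at 0. The part of these marker changes in the members' levels was not tested. Among 6 genes of the canonical TGF-β response, 5 were upregulated in A549 and 6 in BEAS-2B at 5 ng/mL, beside the same upward backgrounds and with the same limit on the share.

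Set between the lines at the same dose, MMP2 and TIMP2 were higher and MMP7 was lower in untreated BEAS-2B than in untreated A549 cells, beside 37.0% of 7329 genes called (18.9% higher, 18.1% lower). At 1 ng/mL MMP2 and MMP14 were higher in BEAS-2B, beside 28.3% of 6965 genes (12.9% higher, 15.3% lower). At 5 ng/mL MMP2 and MMP14 were higher and TIMP2 and TIMP3 lower in BEAS-2B, beside 27.0% of 6837 genes (12.1% higher, 14.8% lower). The cell line and its library cannot be told apart in these comparisons, with 1 library on each side.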

How the data were processed

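Count files for 6 libraries, 1 for each cell line and TGF-β1 dose, were used. RNA was made into QuantSeq 3′-mRNA libraries. The submitters' processing notes name Bowtie2, bedtools and hg19, without versions or roles, and the study names ExDEGA for its analysis. The values the authors deposited are whole-number read counts per symbol, not normalized. The strand setting and filters are not given in the sources used here.

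Counts were scaled with TMM factors (edgeR 4.0.16, R 4.3.3) over all entries. ND is log2 of the normalized count plus 1, and the FC of 2 and the minimum of 7 are the study's numbers, applied here to ND because the scale of its normalized data is not given in the sources used here. Intervals are exact Clopper-Pearson intervals, and ratios of ratios use the exact conditional interval. The scripts were tested on simulated data. A count of 0 was taken to allow 3 counts. All 10 members are named, with up to 3 called genes in each direction for each further list, and the 3 genes most like the member with the largest rise and fall. Some genes that this rule names are not reported here. The members and lists were chosen with earlier results of these data known. Alternatives covered scaling (DESeq2 1.42.0 size factors among them), pseudocount, minimum ND, fold limit, a minimum of 10 counts and repeated symbols. Positions are from GENCODE 29.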

Additional observations from a re-analysis of the deposited data

How the results depend on the processing

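No paired analysis was possible because each condition has 1 library, and for the same reason no library could be left out. The minimum ND decided most counts of called members. Without it, 7 members were called at 5 ng/mL and 7 at 1 ng/mL in A549 (4 and 3 as reported). In BEAS-2B 5 and 5 were called (2 and 1). Between the doses 2 and 1 were called in A549 and BEAS-2B (0 and 0). Between the lines 7 and 9 were called at 0 and 5 ng/mL (3 and 4). Of all 25737 entries, 3046 were then called up and 4403 down at 5 ng/mL in A549, and 2763 and 3257 at 1 ng/mL. In BEAS-2B these were 2686 and 3063, and 2436 and 2913. Between the doses they were 1209 and 2086 in A549 and 1837 and 1620 in BEAS-2B. Between the lines they were 3509 and 5355 at 0 ng/mL and 3166 and 4005 at 5 ng/mL. The BEAS-2B calls included MMP13, with 3 counts against 0, and MMP10 at 1 ng/mL, with 2 against 0. With ND 7 in both libraries, the member counts were 1 and 1 in A549 at 5 and 1 ng/mL. They were 1 in BEAS-2B at 5 ng/mL, and 1 and 2 between the lines. Genes called then were 651 up and 448 down of 5093 tested, and 389 and 358 of 5317, in A549. Such genes were 246 and 329 of 5312 in BEAS-2B. Between the lines they were 656 and 479 of 5023, and 340 and 407 of 5066. With log2(CPM + 1) as the ND value, 2 and 1 members were called in A549, and 1 in BEAS-2B at 5 ng/mL. The shares of genes called there are given above. Between the lines 1 and 2 members were called, beside 415 genes higher and 360 lower of 1990, and 220 and 309 of 1976. With a fold limit of 1.5, 3 members were called between the doses in A549 (543 genes up and 545 down of 6467). In BEAS-2B 1 was called between the doses (263 and 306 of 6306). At 1 ng/mL 3 were called in BEAS-2B (1014 and 1296 of 6681), where upper quartile factors gave 2 (436 and 502 of 6622).

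No member log2 FC reversed. The change of the summed balance at 5 ng/mL did reverse in A549 without MMP7, to 5.28 times control from the 0.551 times of all 7 MMPs. It was 0.0609 times without MMP2 and 0.149 times with the 16 further MMPs. In BEAS-2B, where it was 7.56 times, it was the same without MMP7, 3.09 times without MMP2 and 2.73 times with the further MMPs. These sums were chosen after the data were seen. Scaling by total counts moved the median log2 FC of all genes tested by -0.25 in A549 and -0.15 in BEAS-2B at 5 ng/mL, and the upward share of calls from 48.4% to 33.8% (798 up, 1564 down) and from 38.7% to 26.9% (373 up, 1013 down). At 1 ng/mL the shifts were -0.19 and -0.14, and the upward share went from 46.5% to 32.2% and from 38.3% to 27.3%. Over the alternatives, TIMP1 at 5 ng/mL ranged over log2 FC of 0.32 to 0.55 in A549 and 0.51 to 0.71 in BEAS-2B, and TIMP2 in BEAS-2B over 0.25 to 0.44. Ratios of folds between the lines, recomputed under 4 scalings chosen after the data were seen, ranged from 10.6 to 11.3 for TIMP2. Members under about 10 counts, such as MMP13, MMP14 in A549 and TIMP3 in BEAS-2B, are limited by depth.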
